A study of Mus musculus with 6 samples.

Results

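Potassium channel genes were taken as all rows whose symbol begins with KCN, goes on with letters alone and ends in a number, which selects the pore-forming and auxiliary subunits of potassium channels. The rule found 92 genes of the 23282 rows in each table, each on 1 row, and the symbols of all 92 matched RefSeq gene names on the mouse build GRCm38.p6. It passes over antisense and host transcripts such as Kcnq1ot1, and also the subunit gene listed under the older name Kcne1l. The genes were measured in cultured mouse astrocytes labelled Ink4a -/-, which the study's methods call Ink4a/Arf-/-, that is without either product of that locus, in 3 control libraries of cells that received the vector pcDNA3.1-puro and in 3 JAG1-overexpressing libraries of cells that received pcDNA3.1-JAG1-puro. All libraries thus share the Ink4a/Arf-/- background, the vector backbone with its puromycin resistance and the serum-containing medium. The labels call the genotype of the control libraries WT, which was read here as without added JAG1. Age and strain of the source animals, and whether transfected cells were kept as a pool or as single clones, are not given in the sources used here, nor whether the replicates were transfected separately, so that p-values measure only the spread between these libraries, which may be technical.

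Potassium channels let potassium ions leave or enter a cell along their gradient and so set its membrane potential. Voltage-gated channels open upon depolarization, inward rectifiers hold the resting potential, two-pore-domain channels carry a background leak that responds to pH, stretch or lipids, and other channels open with intracellular calcium or sodium. Auxiliary subunits change the gating or the surface delivery of the pores. In the brain, astrocytes are known for a large resting potassium conductance, carried mainly by the inward rectifier Kcnj10 together with two-pore-domain channels, with which they clear potassium released by neurons. In glioma cells, potassium channels opened by calcium are known for the volume changes that accompany migration.

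The libraries held between 14341634 and 20489062 reads counted on genes, and 3 reads, taken here as the limit of detection in a library, equal between 0.148 and 0.206 CPM (reads per 1000000 of the TMM-normalized library size). Reads are not independent molecules, so this limit and the intervals given later reflect counting error alone. Jag1 itself had 8.99, 10.8 and 11.2 CPM in the control and 15.2, 13.6 and 13.8 CPM in the JAG1-overexpressing libraries, which corresponds to 0.46 on the log2 scale (standard error, SE, 0.11, edgeR adjusted p = 0.00446). The species and extent of the JAG1 sequence in the vector are not given in the sources used here, and reads from the 3' end may miss a construct without the mouse 3' end, so that this value is a weak check of the labels. The defining astrocyte markers Gfap, Aqp4 and Gjb6 had 0 reads in all 6 libraries. The summed level of 12 astrocyte markers lay between 338 and 399 CPM in control and between 124 and 137 CPM in JAG1-overexpressing libraries, and 6 of the 7 that could be tested were lower. Most of these sums came from Sox9, with means of 181 and 18.0 CPM, and Gja1, with means of 151 and 96.7 CPM. A list of 7 fibroblast and pericyte markers summed to between 818 and 854 CPM in control and between 312 and 361 CPM in JAG1-overexpressing libraries, with 5 of 6 tested markers lower but Col1a2 higher, at 3.35 and 50.7 CPM. The 7 neuronal markers summed to between 100.3 and 110.0 CPM in control and between 58.8 and 61.8 CPM in JAG1-overexpressing libraries. Of the 3 tested, Tubb3 (78.2 and 8.40 CPM) and Stmn2 were lower, while Map2 was higher, at 25.1 and 51.3 CPM. Of the defining neuronal markers, Rbfox3 had 1 read in all and Syt1 and Snap25 had none. Markers of the oligodendrocyte lineage summed to at most 4.80 CPM, those of microglia to at most 2.41 CPM and those of endothelium to at most 0.322 CPM. In bulk libraries, fewer cells of a type cannot be told apart from less RNA per cell, and the part of these shifts in the potassium channel values was not tested.

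Most potassium channel genes did not exceed the limit of detection in any library. Of the 92 genes, 47 had 0 reads in all 6 libraries, or 51.1% against 28.0% of all rows in the tables. A further 25 genes had at most 3 reads in any library, and 10 genes had more but stayed below the number of reads required for a test. The remaining 10 genes, or 10.9% against 50.3% of all rows, were tested. By class, 4 of 15 auxiliary subunits, 3 of 14 two-pore-domain channels, 2 of 15 inward rectifiers and 1 of 8 channels activated by calcium or sodium were tested, but 0 of 40 voltage-gated alpha subunits. The last class was the emptiest, with 24 genes at 0 reads throughout.

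**Figure D1:**
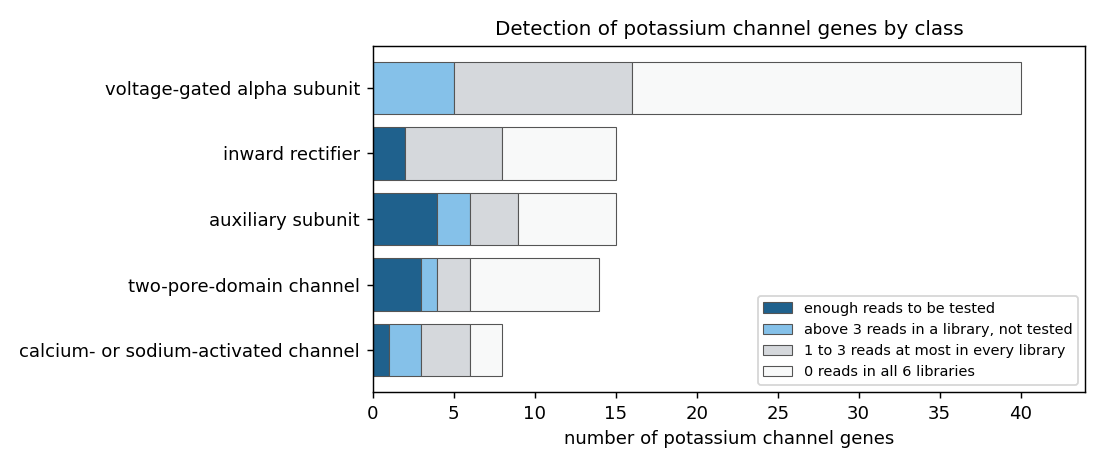
Number of potassium channel genes (x axis) in each of 5 classes (y axis), split by how many reads they had. The 40 voltage-gated alpha subunits hold none that could be tested and 24 with 0 reads in all 6 libraries, while 4 of 15 auxiliary subunits had enough reads.

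Kcnj10, the inward rectifier that marks mature astrocytes, had 1 read in control replicate 3, 1 read in JAG1-overexpressing replicate 1 and none in the other libraries. Kcnk1, a two-pore-domain channel also known from astrocytes, had 0 reads in every library, which allows a level of up to 0.206 CPM in the shallowest. At this depth, neither transcript could be told from absence in either group. Kcnj16, which forms channels together with Kcnj10, had at most 1 read in a library.

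Of the 10 genes tested, Kcnn4 alone was called higher upon JAG1 overexpression and 6 were called lower (adjusted p under 0.05 over 11712 genes, edgeR). Over all genes tested, 55.1% were called, 27.4% as higher and 27.7% as lower. All 6 that fell did so by at least 2-fold, which holds for 8.49% of all genes tested, and 0 genes rose that far (edgeR, also at an unadjusted p under 0.05), against 5.46%. The groups did not overlap in these 7 genes, which holds for 62.0% of all genes tested, 31.1% in the higher and 30.9% in the lower direction. These counts are not evidence about the class, since some genes had enough reads only through the control libraries. Kcnk3 and Kcnk5, 2 of the 10, had at most 3 reads in each JAG1-overexpressing library and therefore had to differ. Kcnip3 (7, 7 and 14 reads) and Kcnab1 (11, 5 and 13 reads) fell short of 10 reads in JAG1-overexpressing libraries, but in no control library. They too passed the filter through the control libraries. The median log2 fold change was −1.20 over the 10 genes, also with Kcnk3 at the bound given below, and −0.71 over the 8 genes without Kcnk3 and Kcnk5, beside 0.00386 over all genes tested. The 8 genes still hold Kcnip3 and Kcnab1, so neither median is free of this selection, and no downward shift of the class can be read from them.

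The 10 tested genes lie on 8 of the mouse chromosomes, and the other tested genes of those chromosomes had median log2 fold changes between −0.02 and 0.05. None of the 10 lies on chromosome 15 or 19, the medians of which were −0.53 and 0.61.

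Together, the 92 genes summed to 208 ± 10.2 CPM (SD, n = 3) in control libraries, against 209 ± 2.04 CPM (SD, n = 3) upon JAG1 overexpression, a difference smaller than the spread among the control libraries. Its composition differed. Kcnn4 took 80.3% ± 3.49 (SD, n = 3) of the reads on potassium channel genes in control and 93.9% ± 0.417 (SD, n = 3) in JAG1-overexpressing libraries. Without Kcnn4, the sum was 40.8 ± 5.21 CPM (SD, n = 3) in control libraries, against 12.7 ± 0.843 CPM (SD, n = 3) upon JAG1 overexpression, with no overlap between the groups. Auxiliary subunits went from 16.2 ± 0.532 to 3.62 ± 0.982 CPM and two-pore-domain channels from 13.2 ± 0.392 to 4.15 ± 0.614 CPM (SD, n = 3 each). Most of these differences lay in single genes, Kcnab2 going from 11.8 to 1.32 CPM and Kcnk5 from 8.74 to 0.0332 CPM. Kcnk2, another two-pore-domain channel, had 3.20 and 3.78 CPM. Inward rectifiers went from 9.18 ± 4.02 to 3.88 ± 0.359 CPM, and the voltage-gated alpha subunits together from 1.72 ± 0.560 to 0.854 ± 0.0824 CPM (SD, n = 3 each). The QuantSeq kit used for the libraries gives reads from transcript 3' ends whatever the transcript length, and CPM were compared between genes without division by transcript length.

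**Figure D2:**
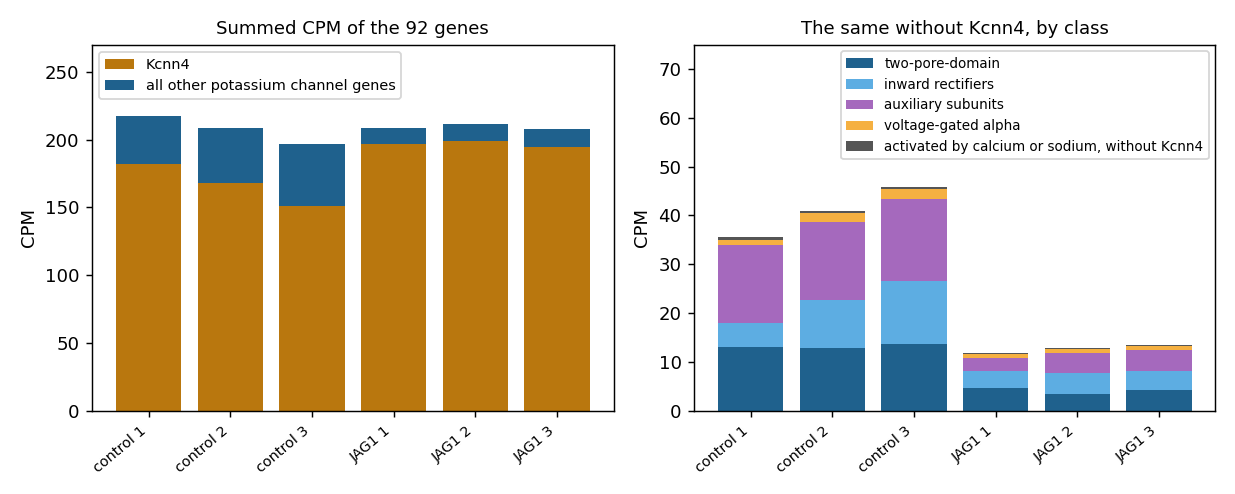
Left, summed CPM of the 92 potassium channel genes in each library, split into Kcnn4 and all others; right, the sum without Kcnn4, split by class. The total is close to 208 CPM in both groups, while the part without Kcnn4 falls from a mean of 40.8 to 12.7 CPM.

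Promoter windows of 4 of the tested genes are shown because these genes had the highest levels in control astrocytes, 1 of them rising and 3 falling. Each is the 250 bases before a transcript start in the RefSeq GRCm38.p6 promoter table, which is the build that the submitters' processing notes also name, written 5′ to 3′ on the strand of the gene. Capitals mark CACGTG, the core that HES and HEY repressors and other basic helix-loop-helix factors are known to bind. For Kcnn4 the start used, at 24370263, lies 437 bases inside the gene span that RefSeq lists, so its window is not upstream of the whole gene, while the other 3 windows adjoin their gene spans. For Kcnab2 the most upstream of 3 listed starts was used, and 67 of the 92 genes had a sequence in the table, 7 of the 10 tested ones among them.
Kcnn4, chr7:24370013-24370262, plus strand: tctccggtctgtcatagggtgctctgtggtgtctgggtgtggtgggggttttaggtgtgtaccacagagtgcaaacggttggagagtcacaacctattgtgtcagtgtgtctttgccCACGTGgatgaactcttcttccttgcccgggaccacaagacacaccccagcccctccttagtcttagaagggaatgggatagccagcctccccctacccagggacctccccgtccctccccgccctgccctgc
Kcnab2, chr4:152477550-152477799, minus strand: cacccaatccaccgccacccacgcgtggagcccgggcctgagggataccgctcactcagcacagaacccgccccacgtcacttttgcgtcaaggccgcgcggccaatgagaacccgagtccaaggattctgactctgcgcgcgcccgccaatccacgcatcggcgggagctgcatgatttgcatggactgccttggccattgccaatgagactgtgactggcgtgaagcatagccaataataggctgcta
Kcnk5, chr14:20181783-20182032, minus strand: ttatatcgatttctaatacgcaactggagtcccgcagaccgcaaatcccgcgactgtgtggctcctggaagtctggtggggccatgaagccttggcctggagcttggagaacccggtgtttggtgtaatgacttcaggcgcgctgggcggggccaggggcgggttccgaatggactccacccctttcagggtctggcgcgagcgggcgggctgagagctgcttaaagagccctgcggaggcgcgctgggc
Kcnj2, chr11:111065914-111066163, plus strand: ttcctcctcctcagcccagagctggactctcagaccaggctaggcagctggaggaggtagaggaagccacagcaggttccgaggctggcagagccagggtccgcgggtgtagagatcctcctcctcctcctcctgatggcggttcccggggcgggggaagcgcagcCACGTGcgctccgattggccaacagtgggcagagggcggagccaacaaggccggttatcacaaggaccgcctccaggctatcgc

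CACGTG, which reads the same on both strands, begins 133 bases before the start used for Kcnn4 and 84 bases before that of Kcnj2, and 6.02% of all 32851 windows of this length in the table hold it. TGGGAA, the core recognised by the Notch effector RBPJ, was searched on both strands and was in none of the 4 windows, and 21.6% of all windows hold it. The wider E-box CANNTG, which takes in CACGTG and is the kind of site that TWIST1 is known to bind, occurred once in the windows of Kcnn4 and of Kcnk5, in 2 places in that of Kcnj2 and not in that of Kcnab2, and 66.2% of all windows hold it. The 4 windows had a G and C content between 58.8% and 65.6%, against a median of 52.4% over all windows.

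Kcnn4, on chromosome 7 (24369826 to 24385212), was by far the most abundant potassium channel transcript. It encodes the calcium-activated channel of intermediate conductance, a channel known from lymphocytes, proliferating cells and glioma cells. The control libraries had 182, 168 and 151 CPM and the JAG1-overexpressing libraries 197, 199 and 194 CPM. The lowest JAG1-overexpressing library exceeded the highest control library, and the control libraries were spread more widely. The rise was small, with a log2 fold change of 0.24 (SE 0.07, adjusted p = 0.0101, edgeR), that is 1.18-fold. Leaving out 1 library at a time gave values from 0.16 to 0.30. Smg9, the nearest tested gene at 27.7 kb, was lower, with a log2 fold change of −0.36 (adjusted p = 0.00242, edgeR).

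The other channels opened by calcium or sodium were near the limit of detection. Kcnma1, the pore of the large-conductance channel that is also known from glioma, had 3, 3 and 6 reads in control and 0, 0 and 2 reads in JAG1-overexpressing libraries. The pooled ratio of control to JAG1-overexpressing reads, scaled to library size, was 5.28, with an exact 95% counting interval from 1.18 to 48.6. Kcnn1, a small-conductance channel, had 6, 4 and 1 reads against 4, 0 and 3 reads, and the groups overlapped.

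Kcnk5, on chromosome 14 (20140057 to 20181782), fell the furthest among the tested potassium channel genes with reads in both groups. It encodes TASK-2, a two-pore-domain channel that opens at alkaline pH outside the cell and takes part in volume regulation. The control libraries had 178, 154 and 175 reads, or 8.79, 8.27 and 9.15 CPM. The JAG1-overexpressing libraries had 2, 0 and 0 reads. The groups did not overlap, and the transcript was all but absent from every JAG1-overexpressing library. The pooled ratio of control to JAG1-overexpressing reads, scaled to library size, was 223, with an exact 95% counting interval from 61.5 to 1848 (adjusted p = 2.27e-08, edgeR). As both reads lay in JAG1-overexpressing replicate 1, the ratio rests on that library. Without it, Kcnk5 was at 0 reads and at least 42.3-fold lower against the limit of 3 reads in a library (adjusted p = 8.56e-07, edgeR). Neither of the nearest tested genes was called, namely Saysd1, 64.4 kb away with a log2 fold change of 0.40 (adjusted p = 0.229, edgeR), and Nudt13, 155 kb away with −0.31 (adjusted p = 0.0624, edgeR).

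Kcnk3, on chromosome 5 (30588170 to 30625270), encodes TASK-1, a leak channel closed by acid outside the cell. It had 23, 11 and 27 reads in control and 0 reads in every JAG1-overexpressing library. Measured against the limit of 3 reads in the shallowest library, its control level of 1.05 ± 0.418 CPM (SD, n = 3) made it at least 5.07-fold lower (adjusted p = 3.25e-04, edgeR). Of its nearest tested neighbours, Selenoi was higher, with a log2 fold change of 0.50 (adjusted p = 0.0283, edgeR), and Slc35f6 was not called, with 0.19 (adjusted p = 0.101, edgeR). Gm9899, which overlaps Kcnk3, had 2 reads in control replicate 1 and none in the other libraries.

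Kcnk2, which encodes the leak channel TREK-1 opened by stretch and lipids, was the two-pore-domain channel that remained at a measurable level. The control libraries had 2.91, 3.81 and 2.88 CPM and the JAG1-overexpressing libraries 4.39, 3.23 and 3.71 CPM. The groups overlapped, and the log2 fold change was 0.25 (SE 0.19, adjusted p = 0.279, edgeR). Kcnk2 was below Kcnk5 in every control library and above it in every JAG1-overexpressing library. Its close relative Kcnk10 had 1, 1 and 0 reads in control and 2, 2 and 7 reads in JAG1-overexpressing libraries, too few for a test. Kcnk6 and Kcnk7 had at most 3 reads in a library.

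**Figure D3:**
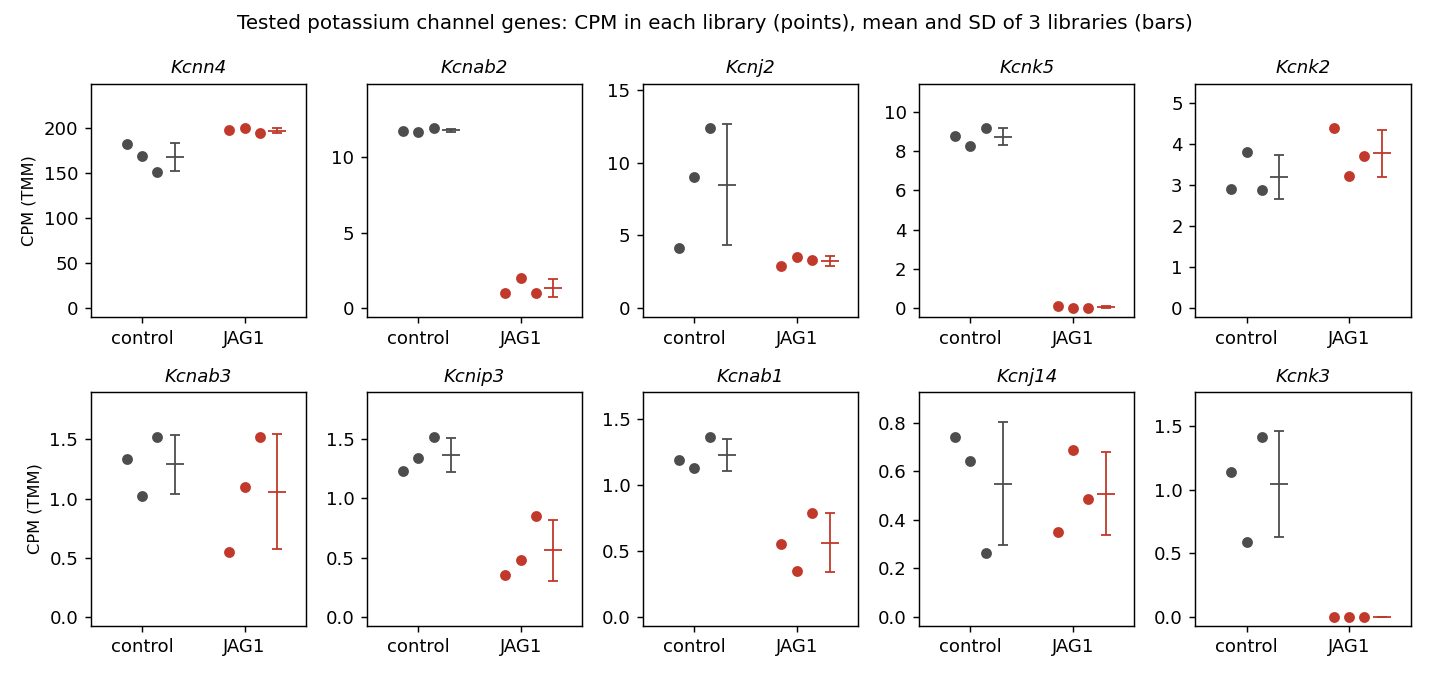
CPM (y axis, a scale for each gene) of the 10 tested potassium channel genes in the 3 control (grey) and 3 JAG1-overexpressing (red) libraries; the bar beside the points gives mean and SD. Kcnn4 lies slightly higher in all 3 JAG1-overexpressing libraries, and Kcnab2, Kcnj2, Kcnk5, Kcnip3, Kcnab1 and Kcnk3 lie lower in all 3.

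Among the inward rectifiers, Kcnj2 was the most abundant. On chromosome 11 (111066164 to 111076825), it encodes Kir2.1, a strong rectifier that holds the resting potential of muscle and other cells. The control libraries had 4.10, 9.02 and 12.3 CPM and the JAG1-overexpressing libraries 2.89, 3.51 and 3.28 CPM. The control libraries differed 3-fold among themselves, whereas the JAG1-overexpressing libraries were alike, and the lowest control library lay only just above the highest JAG1-overexpressing one. The log2 fold change was −1.40 (SE 0.33, adjusted p = 0.00415, edgeR), and it was −1.03 without control replicate 3 and −1.74 without control replicate 1. The nearest tested gene on its downstream side was Sox9, a transcription factor of astrocytes and cartilage, 1716 kb away, which went from 181 to 18.0 CPM with a log2 fold change of −3.33 (SE 0.07). Map2k6, 667 kb away on the other side, was lower too, with −1.10 (SE 0.18).

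Kcnj14, which encodes the rectifier Kir2.4, had 15, 12 and 5 reads in control and 7, 10 and 8 reads in JAG1-overexpressing libraries. The groups overlapped, with a log2 fold change of −0.16 (SE 0.47, adjusted p = 0.795, edgeR). The other 13 inward rectifiers, with the subunits of the ATP-sensitive and the G protein-gated channels among them, had at most 3 reads in any library.

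The auxiliary subunits were led by Kcnab2, on chromosome 4 (152390744 to 152477549). It encodes the beta-2 subunit, an aldo-keto reductase that binds voltage-gated channels of the Kcna family and aids their delivery to the surface. The control libraries had 238, 218 and 228 reads and the JAG1-overexpressing libraries 20, 29 and 16 reads, with means of 11.8 ± 0.117 and 1.32 ± 0.584 CPM (SD, n = 3 each). The control libraries were nearly identical in CPM, and every JAG1-overexpressing library lay far below them. The log2 fold change was −3.19 (SE 0.21, adjusted p = 2.15e-07, edgeR), an 8.93-fold difference of the means. With each library left out in turn it ran from −3.57 to −3.01. Kcnab2 overlaps the gene Nphp4, on which at most 12 reads were counted in a library. The nearest tested gene on either side was lower as well, namely Chd5, 52.1 kb away with a log2 fold change of −1.07 (adjusted p = 0.00374, edgeR), and BC039966, 1558 kb away with −2.28 (adjusted p = 4.54e-06, edgeR).

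The pores that Kcnab2 is known to join did not exceed the limit of detection in these libraries. Of the Kcna genes, Kcna2 had 1 read in control replicate 3 and 2 reads in JAG1-overexpressing replicate 1, and no other Kcna gene had more than 1 read in any library.

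Kcnip3 and Kcnab1 were far less abundant. Kcnip3, a calcium sensor that binds the A-type channels of the Kcnd family and is also known as a transcriptional repressor, had 25, 25 and 29 reads in control and 7, 7 and 14 reads in JAG1-overexpressing libraries. It fell by 1.30 on the log2 scale (SE 0.35, adjusted p = 0.00925, edgeR), but its adjusted p was 0.0523 without JAG1-overexpressing replicate 1, in a range from 0.00471 to 0.0523 over the alternatives. Kcnab1, the beta-1 subunit, had 24, 21 and 26 reads against 11, 5 and 13 reads. It fell by 1.10 (SE 0.34, adjusted p = 0.0177, edgeR), but the adjusted p was 0.0580 with DESeq2, 0.0611 without JAG1-overexpressing replicate 1 and 0.0624 without JAG1-overexpressing replicate 2, in a range from 0.0145 to 0.0624 over the alternatives. Both transcripts that overlap Kcnab1 and have a row had at most 3 reads each in a library. In both genes, every JAG1-overexpressing library lay below every control library.

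Kcnab3, the beta-3 subunit, had 27, 19 and 29 reads in control and 11, 16 and 25 reads in JAG1-overexpressing libraries. The groups overlapped, with a log2 fold change of −0.32 (SE 0.36, adjusted p = 0.473, edgeR). Kcnmb4, the beta-4 subunit of the large-conductance channel, had 6, 11 and 4 reads in control and 0 reads in each JAG1-overexpressing library, which made it at least 1.77-fold lower against the limit of 3 reads in a library. Reads on Kcnmb4 may be shared with the transcripts Kcnmb4os1 and Kcnmb4os2 that overlap it, as the strand setting of the counting is not given in the sources used here. Both had 0 reads in the JAG1-overexpressing libraries, and Kcnmb4os1 had 1, 6 and 2 reads in control. Kcnip4 had at most 4 reads in a library in either group.

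Voltage-gated alpha subunits had too few reads for a test throughout, and 5 of them exceeded 3 reads in a library. Kcnh5, which encodes the channel EAG2, had 7, 12 and 20 reads in control and 0 reads in every JAG1-overexpressing library. At 0.679 ± 0.352 CPM (SD, n = 3) in control, it was at least 3.29-fold lower by the same limit. Kcnh2, which encodes the ERG channel of the cardiac action potential, had 2, 4 and 10 reads in control and 11, 6 and 8 reads in JAG1-overexpressing libraries, and the groups overlapped.

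Kcnh3, of the related ELK family, had 7, 11 and 5 reads in control and 3, 2 and 0 reads in JAG1-overexpressing libraries. It lies on chromosome 15, where 345 of 458 tested genes were lower, and it overlaps Mcrs1, which had between 329 and 436 reads in control and between 195 and 242 in JAG1-overexpressing libraries. Kcnd1, an A-type channel, had 0, 4 and 3 reads in control and 0, 2 and 0 reads in JAG1-overexpressing libraries, and the groups overlapped. The members of the Kcnq family, which carry the M current of neurons, had 0 reads in all libraries.

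**Figure D4:**
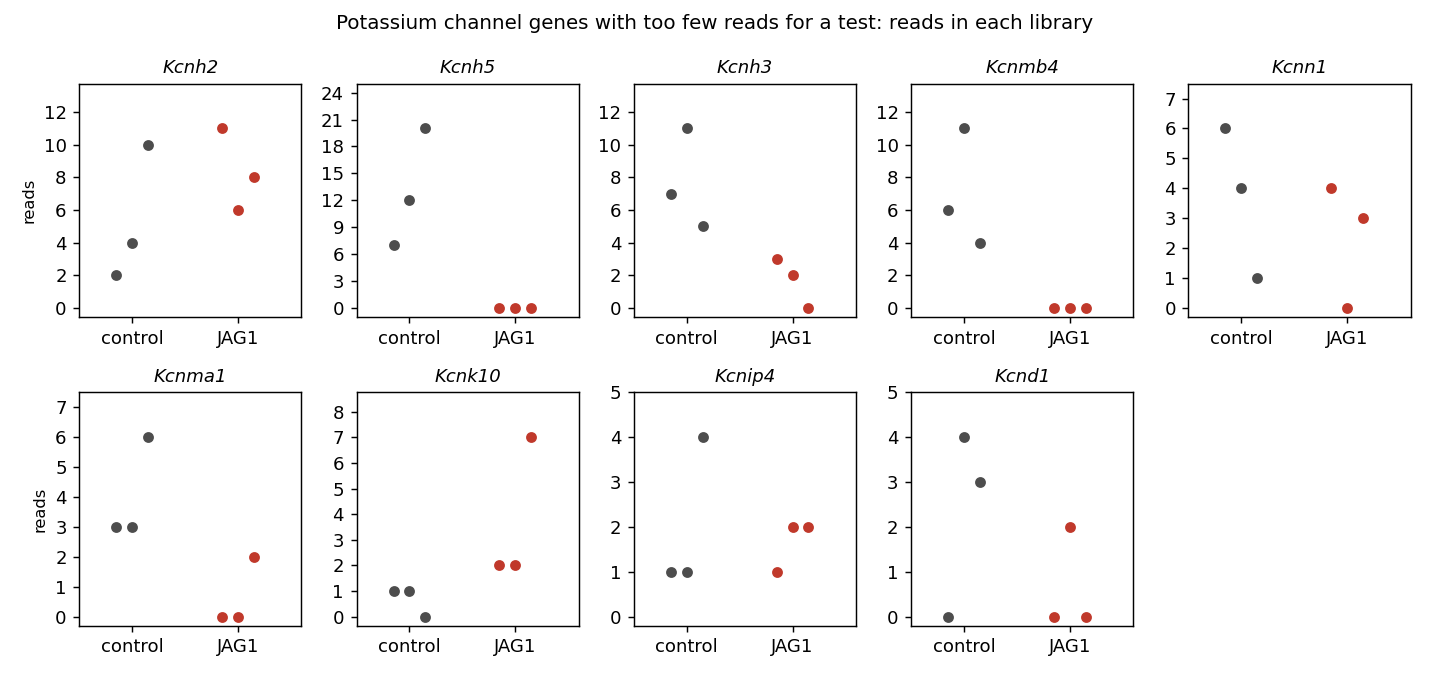
Reads (y axis, a scale for each gene) in the 3 control (grey) and 3 JAG1-overexpressing (red) libraries for 9 potassium channel genes that exceeded 3 reads in a library but had too few for a test. Kcnh5 and Kcnmb4 had 0 reads in all 3 JAG1-overexpressing libraries, while Kcnh2 reached 11 reads there.

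Potassium channels work beside the pumps and cotransporters that build the gradient, so 66 other genes of potassium handling were listed (Na,K-ATPase, cation-chloride cotransporters and their kinases, exchangers, cyclic nucleotide-gated and HCN channels, and anchors of potassium channels). All 66 had a row, 26 had enough reads to be tested, and 18 had 0 reads throughout. Of the 26, 12 were higher and 6 lower in JAG1-overexpressing astrocytes, where 27.4% and 27.7% of all genes tested were called in these directions. Their median log2 fold change was 0.19, beside 0.00386 over all genes tested. Some of the genes called higher, such as Wnk3, had enough reads only through the JAG1-overexpressing libraries. Neither these counts nor the median is free of this selection, and no upward shift of the list can be read from them.

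Atp1b1, a beta subunit of the sodium and potassium pump, had 15.4, 16.6 and 19.2 CPM in control and 40.2, 39.9 and 36.3 CPM in JAG1-overexpressing libraries, and the groups did not overlap. Its log2 fold change was 1.18 (SE 0.09, adjusted p = 1.16e-06, edgeR). Atp1b2, the beta subunit that marks astrocytes in the brain, had at most 2 reads in a library.

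Among the cotransporters and their regulators, Slc12a2, which brings sodium, potassium and chloride into the cell, fell by 0.43 on the log2 scale (SE 0.06), and Slc12a4, which exports potassium with chloride, rose by 0.53 (SE 0.08). Of the WNK kinases that set the activity of both, Wnk1 went from 205 to 346 CPM, with a log2 fold change of 0.75 (SE 0.07). Wnk4 had 5.33, 4.99 and 4.24 CPM in control and 1.20, 1.72 and 1.52 CPM in JAG1-overexpressing libraries, a log2 fold change of −1.73 (SE 0.20, adjusted p = 2.43e-05, edgeR). Wnk3 moved the other way from a level near the limit of detection. It had 4, 4 and 3 reads in control and 33, 17 and 18 reads in JAG1-overexpressing libraries (adjusted p = 1.41e-04, edgeR). Only through the JAG1-overexpressing libraries did Wnk3 have enough reads for a test. A rise was thus selected for, and the p-value is no independent support for it. Slc24a3, an exchanger of sodium for calcium and potassium, fell by 1.18 on the log2 scale (SE 0.11).

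Dag1, which encodes dystroglycan of the complex that holds Kcnj10 and Aqp4 at astrocyte endfeet, rose by 0.52 on the log2 scale (SE 0.06, adjusted p = 2.87e-05, edgeR), from 85.3 ± 2.48 to 122 ± 7.68 CPM (SD, n = 3 each). The potassium-permeable HCN and cyclic nucleotide-gated channels had no member with enough reads for a test.

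**Figure D5:**
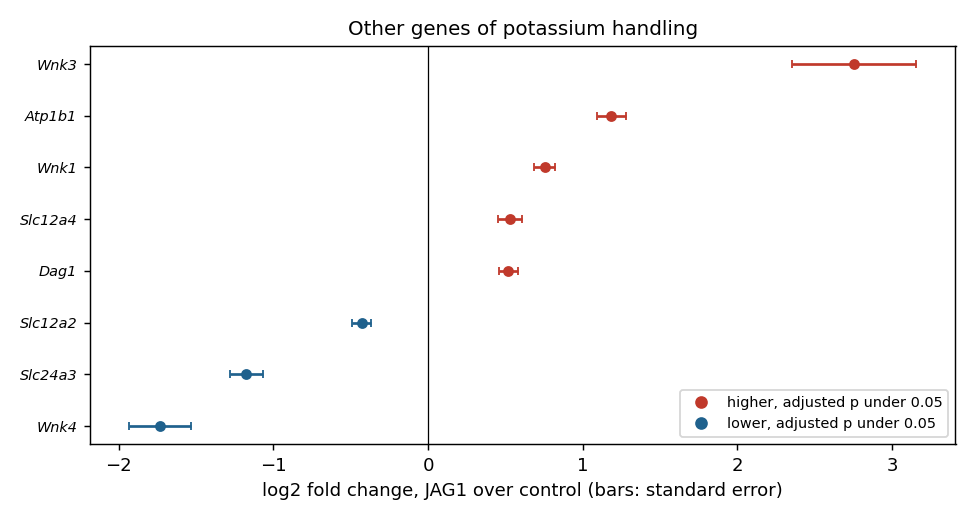
Log2 fold change of JAG1-overexpressing over control astrocytes (x axis) with its standard error for the 8 tested genes of potassium handling described in the text (y axis). Red points are the 5 genes called higher and blue points the 3 called lower, with Wnk3 at the top and Wnk4 at the bottom. Wnk3 had enough reads for a test only through the JAG1-overexpressing libraries.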

How the data were processed

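RNA was sequenced with the QuantSeq 3' mRNA kit in 6 libraries, 3 in each group. The authors deposited 1 table per library with raw read counts per gene and normalized values on a log2 scale, and the submitters' processing notes name Bowtie2, bedtools, edgeR and the build GRCm38 (mm10); annotation and normalization are not given in the sources used here. Read counts were analysed in R 4.3.3 with edgeR 4.0.16. After filterByExpr (minimum count 10), 11712 genes remained, which were TMM-normalized and compared with the quasi-likelihood test, with Benjamini-Hochberg adjustment over all of them and a threshold of 0.05. Standard errors come from the F statistic. DESeq2 1.42.0, limma 3.58.1 (voom, and on the authors' deposited log2 values), other normalizations and filters, a replicate block, an offset for each chromosome and leaving out each library were alternatives. Intervals are exact conditional binomial intervals at 95%. An exact permutation test of 3 against 3 libraries cannot give a two-sided p under 0.1. The fit was tested on simulated data.

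Named were all members that passed the filter or had more than 3 reads in a library, with Kcnj10 and Kcnk1, and called genes of the other list with at least 2-fold change; Kcnj16, Kcnk6, Kcnk7, Kcna2, Atp1b2, Slc12a2, Slc12a4, Wnk1, Dag1, the neighbouring and the overlapping genes were added after their values were seen. Some genes under these rules are not reported here. Members and lists were chosen with earlier results of these data known.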

Additional observations from a re-analysis of the deposited data

How the results depend on the processing

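The number of potassium channel genes called lower was 6 and stayed between 5 and 9 over 16 alternatives, 2 of those called losing the threshold in any of them, Kcnab1 with DESeq2 or without JAG1-overexpressing replicate 1 or 2 and Kcnip3 without JAG1-overexpressing replicate 1. The number called higher was 1, Kcnn4, in all alternatives but the limit of at least 2-fold, at which it was 0 with edgeR, also at an unadjusted p under 0.05. At that limit, 4 other genes of potassium handling were called higher and 2 lower, in place of 12 and 6, and Jag1, at 0.46, was not called. Without the filter on low counts, 9 were called lower, with Kcnh5 and Kcnmb4 among them. With each library left out in turn, 5 to 7 potassium channel genes were lower and 1 was higher, 11 to 14 other genes of potassium handling were higher and 6 to 7 lower, and Jag1 ran from 0.37 to 0.52. The uncalled values of Kcnab3 and Kcnj14 ran from −0.70 to 0.031 and from −0.49 to 0.13, the sign of Kcnab3 turning without JAG1-overexpressing replicate 1 and that of Kcnj14 without it (0.081) or without control replicate 1 (0.13). Libraries with the same replicate number deviated together only weakly (r = 0.148, 0.0614 and 0.119 across genes), although each correlated best with its own number; with the replicate block, 6 potassium channel genes were lower and 1 was higher. Levels under about 0.206 CPM were beyond this depth.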
